A study of Rattus norvegicus with 20 samples.

Results

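In cultures of rat mesenchymal stromal cells (MSCs), 33 genes had reads in every library of the first week and at most 10% of their first-week level in every library of week 3 and week 5. They were chosen by 2 limits on CPM, which is a gene's count per 1000000 counts of its library. Their mean over the 6 libraries of week 1 was at least 10 CPM, and their CPM in each of the 14 later libraries was at most 10% of that mean. Of the 30560 genes in the table, 8882 reached the first limit, and the 33 genes were 0.372% of these. The fall after week 1 is therefore how the genes were selected, so it is described here and not tested. The questions that remain are how the 33 genes differed between soft and stiff surfaces in week 1, how far replicates differed, and how the trace left later was distributed over surfaces and time.

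MSCs are adherent stromal cells that are isolated from marrow by their attachment to a culture surface. Freshly plated marrow also holds haematopoietic cells such as macrophages, some of which attach as well. On stiff surfaces MSCs can take on a myofibroblast state, with contractile stress fibres and production of collagen, whereas soft surfaces hold them back from it.

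The cells came from the femurs and tibias of female Wistar rats (each batch of cells from a single animal), with no genetic change in the groups used. Marrow was plated directly on gelatin-coated silicone of 2 kPa (soft) or 100 kPa (stiff). The authors describe a bead selection for CD54 and CD90 after a first expansion passage, and a passage every week. Whether the libraries of week 1 were taken before or after that selection is not stated. Cells were kept for 1 week (1w2, 1w100) or 3 weeks (3w2, 3w100), with 3 libraries in each of these 4 groups, or for 5 weeks (5w2, 5w100), with 2 libraries each. In 2 further groups of 2 libraries, cells spent 3 weeks on one surface and the last 2 weeks on the other (3w2→2w100 and 3w100→2w2). The 20 libraries of poly-A RNA had 16127907 to 24139128 counts, and those of week 1 had 16473534 to 19526226. The labels number the replicates and do not tie a number to a rat, and replicates differed by more than sampling noise in every group, with a chi-square per degree of freedom of 18.6 to 98.5. The authors state 3 biological replicates for RNA-seq, and 2 for the 5-week and switched groups. By their definition, biological replicates are cells of different rats. p-values of fits without a replicate term measure the spread between these libraries, which may in part be technical. In fits with the replicate number as a term, differences between numbers are taken out. Their p-values and SEs measure the spread left after number and surface or group. In the fits of week 1 alone, that remainder rests on only 6 libraries.

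The table names genes by Ensembl identifier, and no identifier could be paired with a symbol here (0 of 30560). The genes are therefore given by identifier, without a statement of what they encode, and the labelled cell type and the levels of markers of marrow cells were not checked. No sequence of these genes is printed for the same reason. In bulk RNA, fewer cells of a type and less RNA per cell cannot be told apart. CPM is not divided by gene length, so an order of genes by CPM is an order of reads.

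The 33 genes took up a small and variable share of the RNA in week 1. Their means ran from 10.1 to 214 CPM with a median of 19.6 CPM, 17 genes were below 20 CPM and 3 were above 50 CPM. Summed over the 33 genes, the 3 libraries of 1w2 had 1136, 463 and 936 CPM in the order of replicate 1 to 3. Those of 1w100 had 1423, 674 and 1215 CPM in the same order. Replicate 2 was the lowest on both surfaces, and within each number the stiff library was above the soft one. These sums were 0.0463% to 0.142% of all counts. Counting error was small beside these gaps, since the exact 95% Poisson interval of the lowest sum was 453 to 474 CPM. Such intervals cover counting error only. The lowest count of a member in week 1 was 26, for ENSRNOG00000010805 in 1w2, and every count of the other 32 genes was at least 74.

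**Figure D1:**
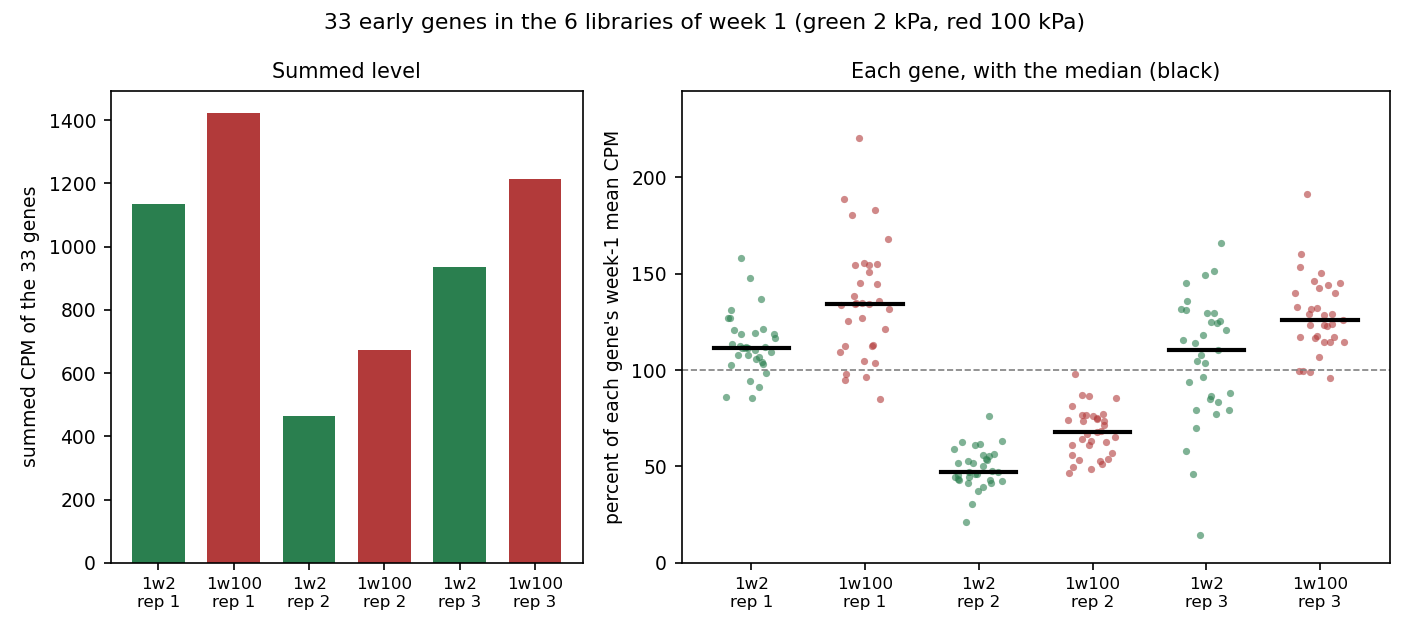
The left panel gives the summed CPM of the 33 genes as a bar for each of the 6 libraries of week 1 (green 2 kPa, red 100 kPa), and the right panel gives each gene as a point in percent of its own week-1 mean CPM, with the median of the 33 genes as a black line and the mean of 100% as a dashed line. The medians of replicate 2 lie at 47.3% on soft and 68.1% on stiff, below all other libraries, which have medians of 110% to 134%.

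The 2 genes with the most reads were ENSRNOG00000005825, which alone made up 13.3% to 28.4% of the summed counts in week 1, and ENSRNOG00000030187. ENSRNOG00000005825 had 273, 97.4 and 125 CPM in 1w2 (mean 165 ± 94.4, SD, n = 3). In 1w100 it had 404, 174 and 213 CPM (mean 264 ± 123, SD, n = 3). Every stiff library was above the soft library of its number, but the groups overlapped, because the soft replicate 1 exceeded the stiff replicates 2 and 3. ENSRNOG00000030187 had 75.9, 14.9 and 32.4 CPM in 1w2 (mean 41.1 ± 31.4, SD, n = 3) and 127, 37.8 and 135 CPM in 1w100 (mean 100.0 ± 54, SD, n = 3). Replicate 2 was again the lowest on each surface, and the groups overlapped.

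Between replicate numbers the 33 genes differed by more than between surfaces, and replicate 2 stood below the others. Replicate 2 had the lowest CPM on both surfaces in 32 of the 33 genes, against 27.2% of the 8882 genes of at least 10 CPM. The exception, singled out after its values were seen, was ENSRNOG00000010805, whose soft replicate 3 was lower still. In the fit of the 6 libraries of week 1, which holds surface and replicate number, the median log2 difference of the 33 genes was -1.07 from replicate 1 to replicate 2 (range -1.99 to -0.33). The median of all 13207 tested genes was -0.01, and 1.81% of them had a difference as low as the members' median or lower. Replicate 3 was above replicate 2 in all 33 genes, by a median of 1.04 (range 0.29 to 1.69). Replicates 1 and 3 had no common order. The log2 difference of replicate 3 from replicate 1 had a median of 0.03 and a range of -1.13 to 0.82, with 18 genes higher and 15 lower in replicate 3.

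**Figure D2:**
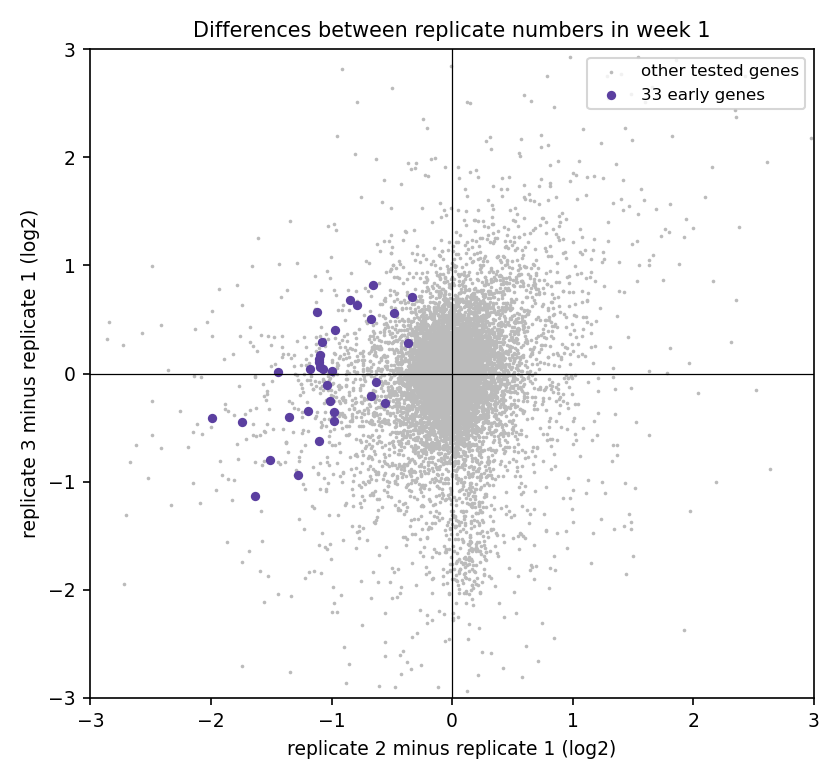
Each point is a gene tested in week 1, with the log2 difference of replicate 2 from replicate 1 on the horizontal axis and that of replicate 3 from replicate 1 on the vertical axis, both over the 2 surfaces (gray, other tested genes, purple, the 33 early genes). All 33 genes lie left of 0 on the horizontal axis and on both sides of 0 on the vertical axis, and 58 genes beyond 3 on either axis are not drawn.

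In edgeR's quasi-likelihood F test of the replicate number in the 6 libraries of week 1, all 33 genes were called at an adjusted p below 0.05 (adjusted p from 9.23e-08 to 0.00998). The same test called 42.5% of all 13207 genes, so that a difference between numbers was common in week 1. The tested genes include genes below the 10 CPM of the rule, so the shares of all genes here are not matched on level. DESeq2 called 31 of the 33 genes and 25.4% of all genes. The 2 it did not call were ENSRNOG00000017980 and ENSRNOG00000010805, named because they fall outside the rest. When the same terms were fitted with all 20 libraries, whose spread then entered the test, edgeR called none of the 33 genes (smallest adjusted p = 0.0728, 6 genes at an unadjusted p below 0.05) and 2.41% of all genes. In 14 of these libraries the rule caps the 33 genes. With replicate 2 left out, 20 of the 33 genes were called between replicates 1 and 3, 9 higher and 11 lower in replicate 3. All 33 genes passed edgeR's filter on low counts in the fit of week 1 and in that of all libraries.

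By the size of the replicate difference, the leading genes were ENSRNOG00000030187 and ENSRNOG00000018251. ENSRNOG00000018251 had 53.5, 13.5 and 37.5 CPM in 1w2 and 56.2, 17.7 and 38.6 CPM in 1w100. Its libraries kept one order on both surfaces, replicate 1 above 3 above 2, and the surfaces were close within each number. Its log2 difference of replicate 2 from replicate 1 was -1.75 ± 0.0968 (SE, edgeR adjusted p for the replicate number = 2.38e-07). That of ENSRNOG00000030187 was -1.99 ± 0.224 (SE, adjusted p = 6.48e-05).

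The number with the highest level was 1 or 3 in each gene, never 2, and was mostly the same on both surfaces. On soft surfaces the highest library was replicate 1 in 17 genes and replicate 3 in 16, and on stiff surfaces it was replicate 1 in 21 genes and replicate 3 in 12. In 27 genes the same number was highest on both surfaces, replicate 1 in 16 of them and replicate 3 in 11, and in the other 6 it differed between the surfaces. ENSRNOG00000005825, described above, was highest in replicate 1 on both surfaces. ENSRNOG00000016164, the gene with the third-most reads and singled out after its values were seen, was highest in replicate 3 on both, with 66.6, 38.3 and 112 CPM in 1w2 and 57.5, 36.4 and 94.9 CPM in 1w100. Replicate 2 was the lowest on each surface, and the log2 difference of replicate 3 from replicate 1 was 0.82 ± 0.0702 (SE).

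The coefficient of variation over the 6 libraries of week 1, which is the SD in percent of the mean, ran from 19.5% to 76.7% in the 33 genes, with a median of 38.5%. The median over the 8882 genes of at least 10 CPM was 10.1% and their 90th percentile was 24.2%. All 33 genes were above that median and 30 were above that percentile. The other 3 genes, named because they are so few, were ENSRNOG00000018414, ENSRNOG00000004273 and ENSRNOG00000017980.

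The evenest of the 33 genes was ENSRNOG00000017980, with 11.4, 8.3 and 13.5 CPM in 1w2 and 11.3, 8.43 and 12.5 CPM in 1w100. Its replicate 2 was the lowest and its replicate 3 the highest on both surfaces, over a narrow range. ENSRNOG00000004273 followed, with 35.6, 18.5 and 27.7 CPM in 1w2 and 37.0, 28.9 and 29.3 CPM in 1w100. Here the soft replicate 2 stood below the other 5 libraries. At the other end, ENSRNOG00000010805 (76.7%) and ENSRNOG00000030187 (72.4%) had the largest coefficients of variation.

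Between the surfaces in week 1, most of the 33 genes had higher values on stiff, by a modest amount. The median log2 difference of stiff from soft in the fit over all 20 libraries was 0.26, against 0.00 for all tested genes, and 29 of the 33 genes had a positive value. In pairs of the same replicate number, the stiff library was above the soft one in 27, 30 and 27 of the 33 genes for numbers 1 to 3, while this was so in 59.2%, 49.2% and 47.8% of the 8882 genes. The median ratio of stiff to soft was 1.22 in number 1, 1.35 in number 2 and 1.16 in number 3. All 3 numbers had the higher value on stiff in 23 of the 33 genes, against 15.3% of the 8882 genes. In 6 genes it was 2 of the 3 numbers and in 3 genes 1 number. ENSRNOG00000016164, with its values above, was the gene in which stiff was the lower in all 3. In none of the 33 genes did all stiff libraries lie above all soft ones, which was so in 1.09% of the 8882 genes.

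**Figure D3:**
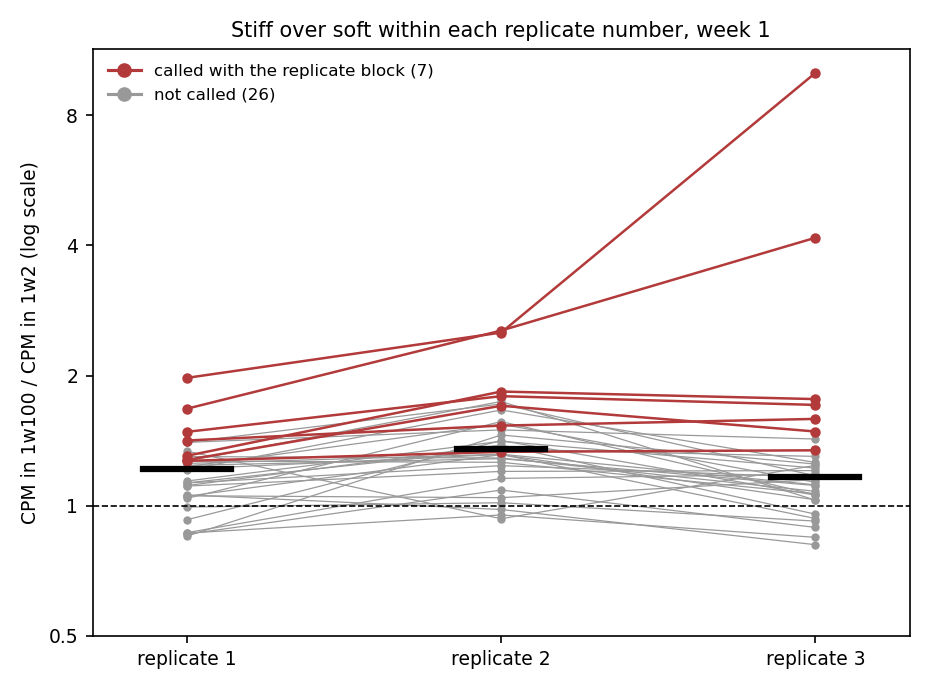
Each line is 1 of the 33 genes and gives its CPM in 1w100 divided by that in 1w2 within replicate numbers 1, 2 and 3 (vertical axis on a log scale, dashed line at 1, black bars at the medians of 1.22, 1.35 and 1.16). The 7 genes called in the fit of week 1 with the replicate number as a block (red) lie above 1 in all 3 numbers, and the 26 others (gray) lie on both sides of 1.

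Whether such a difference passed a test depended on the fit, and calls came only where the replicate number was a block and the fit held the 6 libraries of week 1 alone. The fits of all 20 libraries take their spread also from the 14 later libraries, where the rule caps the 33 genes. A lack of calls there is thus not read as a lack of difference. In edgeR's fit of all 20 libraries without a block, no gene of the 33 was called (smallest adjusted p = 1), and none of the 14034 tested genes was (0.0%). At an unadjusted p below 0.05 there were 54 genes in all and 1 of the 33, ENSRNOG00000010805, and DESeq2 gave 0 calls and 42 genes at an unadjusted p below 0.05. The numbers did pair the libraries in week 1 by the deviations of all genes from their group means, which correlated at 0.626, 0.650 and 0.777 between same-numbered libraries. With the number as a block in the 6 libraries of week 1, edgeR called 7 of the 33 genes, all higher on stiff, against 0.189% of all tested genes called in that direction. These 7 were among 39 genes called in all. Genes below the 10 CPM of the rule are among those tested, so these shares are not matched on level either. At an unadjusted p below 0.05 there were 22 of the 33 genes, 21 of them higher on stiff and ENSRNOG00000016164 lower. DESeq2 with the same block called 3 of the 33 genes higher on stiff, against 0.129% of all tested genes. They were ENSRNOG00000005825, ENSRNOG00000003622 and ENSRNOG00000001224, which edgeR called as well. With the block in all 20 libraries edgeR called none of the 33 genes and no other gene, with 107 genes at an unadjusted p below 0.05, 2 of them members. Without the block the 6 libraries gave no call either, with 59 genes at an unadjusted p below 0.05 and none of the 33 among them.

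The 2 members with the largest called difference between the surfaces were ENSRNOG00000010805 and ENSRNOG00000030187. ENSRNOG00000010805 had 12.1, 3.31 and 1.58 CPM in 1w2 (mean 5.67 ± 5.65, SD, n = 3) and 23.9, 8.32 and 15.8 CPM in 1w100 (mean 16 ± 7.8, SD, n = 3). The stiff library was above the soft one in each number, but the soft replicate 1 was above the stiff replicate 2. Its log2 difference of stiff from soft was 1.58 ± 0.276 (SE, adjusted p = 0.0415, edgeR with the block). Without the block and over all libraries it was 1.5 ± 0.609 (SE, adjusted p = 1). The ratio of stiff to soft was 1.98, 2.51 and 10.0 in numbers 1 to 3, so that the size of the difference rested much on number 3, whose soft library held the count of 26.

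For ENSRNOG00000030187 the log2 difference of stiff from soft was 1.34 ± 0.178 with the block (SE, adjusted p = 0.0119, edgeR) and 1.29 ± 0.656 without it (SE, adjusted p = 1). Its ratios of stiff to soft were 1.68, 2.54 and 4.17. ENSRNOG00000005825 had the smallest adjusted p of the 33 genes with the block (0.00106, edgeR), at a log2 difference of 0.71 ± 0.0617 (SE), and its ratios of 1.48, 1.79 and 1.71 were close to each other. With replicate 1 left out of that fit 2 members stayed called, ENSRNOG00000005825 and ENSRNOG00000030187, with replicate 2 left out 8 were called, and with replicate 3 left out 7. Leaving out 1 library of week 1 at a time from the fit of all libraries, which has no block and so keeps the other library of that number, gave a median difference of the 33 genes of -0.02 without the soft replicate 2 and of 0.13 to 0.52 without any other. In the blocked fit of week 1, leaving out a number removes both of its libraries, and the median was then 0.21 to 0.31.

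The genes beyond the limit are set beside the 33 here for the same features. Of the 8882 genes of at least 10 CPM in week 1, 11 had their highest later library between 10% and 20% of the week-1 mean and 55 had it between 20% and 50%, while the median over the 8882 genes was 111%. Replicate 2 was the lowest on both surfaces in 8 of these 11 genes, in 45.5% of the 55 genes and in 26.8% of the 8783 genes above 50%. Stiff was above soft in all 3 numbers in 6 of the 11 genes, in 47.3% of the 55 and in 14.8% of the 8783. The median coefficient of variation in week 1 was 38.1%, 29.7% and 10.1% in these 3 groups, the first of which is close to the 38.5% of the 33 genes. These groups share libraries and were all formed from each gene's own week-1 mean, and they were not matched on level. The shares are therefore given as a description and were not tested.

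Near the limits themselves, the members with the lowest means were ENSRNOG00000023708 (10.1 CPM), ENSRNOG00000012749 (10.3 CPM) and ENSRNOG00000010805 (10.8 CPM). Just below 10 CPM were ENSRNOG00000012779 (9.59 CPM), ENSRNOG00000036829 (9.47 CPM) and ENSRNOG00000007350 (9.30 CPM), whose later levels met the second limit. The members with the highest later library were ENSRNOG00000001270 (9.51% of its week-1 mean), ENSRNOG00000017672 (7.79%) and ENSRNOG00000010319 (6.87%). The nearest genes beyond the second limit were ENSRNOG00000014294 (11.5%), ENSRNOG00000017783 (12.9%) and ENSRNOG00000019430 (13.3%).

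By week 3 the 33 genes were low, as the rule requires, but still read, with a count in all 6 libraries of week 3 in 21 of them, and their trace differed between libraries. The summed level was 9.71, 4.22 and 26.3 CPM in 3w2 and 13.8, 17.4 and 34.6 CPM in 3w100. Replicate 3 was the highest on both surfaces, which is not the order of week 1, and the stiff library was above the soft one in each number. Gene by gene, replicate 3 was the highest in 32 of the 33 genes on soft and in 27 on stiff, while 42.1% and 32.8% of the 8882 genes had it highest. Stiff was above soft in 20, 32 and 22 of the 33 genes for numbers 1 to 3, and in 43.3%, 52.0% and 42.6% of the 8882 genes. The soft library of number 2 held only 68 reads of the 33 genes, with 12 of them at 0. The rule caps the 33 genes in these libraries but not the 8882, so these shares are a description and were not tested. Numbers did not pair the libraries at 3 weeks by the criterion used (r = 0.389, 0.084 and 0.465). The mean of week 3 was 0.371% to 6.37% of the mean of week 1, with a median of 1.78% over the 33 genes.

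By week 5 most values were 0. Of the 198 values of the 33 genes in week 3, 15 were 0 (7.58%), and of the 264 values in week 5, 168 were (63.6%). Summed over the 33 genes, the levels were 2.45 and 1.96 CPM in 5w2, 2.92 and 6.02 CPM in 5w100, 1.17 and 2.22 CPM in 3w2→2w100, and 3.62 and 7.19 CPM in 3w100→2w2. The values of the 4 libraries that began on the stiff surface were above those of the 4 that began on soft, but the nearest of them overlapped within counting error. The first 5w100 library had 55 reads (2.20 to 3.80 CPM, exact 95% Poisson interval) and the first 5w2 library had 59 reads (1.86 to 3.16 CPM). In counts these sums were 21 to 130 reads per library, and the lowest had an exact 95% Poisson interval of 0.726 to 1.79 CPM. Without ENSRNOG00000017672, which is described below, the sums were 2.07 and 1.92 in 5w2, 2.92 and 3.77 in 5w100, 1.12 and 2.22 in 3w2→2w100, and 3.41 and 5.14 CPM in 3w100→2w2.

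**Figure D4:**
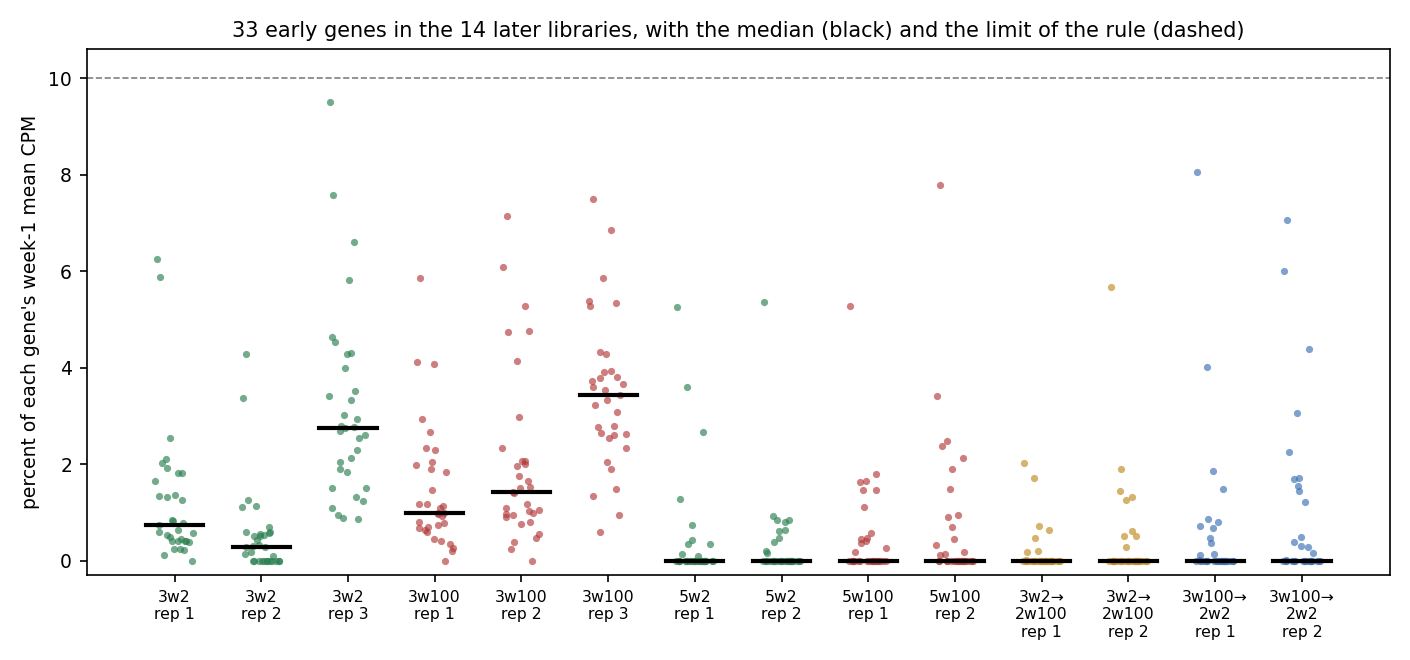
Each point is 1 of the 33 genes in one of the 14 later libraries, in percent of its own week-1 mean CPM, with the median of the 33 genes as a black line and the 10% limit that chose the genes as a dashed line. Medians lie between 0.288% and 3.44% in the 6 libraries of week 3 and at 0 in the 8 libraries of week 5.

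The values at 5 weeks were mostly below those at 3 weeks, which is given as a description, because the rule that chose the 33 genes used the same libraries. Of the 33 genes, 16 passed the filter on low counts through week 1 only and would not have passed it on the 14 later libraries, as was so for 4.23% of all tested genes. Counts were near 0 in many arms, with 11 genes at 0 and 21 genes at no more than 3 reads in all 4 libraries of 5w2 and 5w100 together. Between the groups kept on one surface (5w2 and 5w100 against 3w2 and 3w100), 32 of the 33 genes were lower at 5 weeks in the fit, with a median fitted log2 difference of -3.90. A fitted value is no bound for the 11 genes at 0, and with these at 3 counts over the groups the median difference in pooled CPM was -2.54. edgeR over 20 libraries called none of the 33 genes (smallest adjusted p = 0.0739, for ENSRNOG00000005825) and 0.00713% of all genes lower at 5 weeks. At an unadjusted p below 0.05 it had 26 of the 33 genes and 8.62% of all genes lower, and DESeq2 called 21 of the 33 genes and 1.5% of all genes lower. Since the rule used these values and the filter let in 16 of the genes through week 1, nothing about the 33 genes is read from these counts of calls.

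Single genes differed in how much was left. In 8 of the 33 genes no read was counted in any of the 8 libraries of week 5, and 18 had at most 3 reads in these libraries together. The week-5 mean was below 1% of the week-1 mean in 28 genes, whereas the week-3 mean was so in 6. ENSRNOG00000005825, with the most reads in week 1, had 28, 5 and 68 reads in 3w2, 61, 37 and 151 reads in 3w100, and 3 reads in the 8 libraries of week 5 together. Its replicate 3 was the highest on both surfaces at 3 weeks, and the 3 later reads lay 1 each in 3 libraries of switched cultures. ENSRNOG00000030187 had 2, 2 and 14 reads in 3w2, 11, 3 and 37 reads in 3w100, and 2 reads in week 5, both in the second 5w100 library.

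At the other end, a few genes were still read throughout. Those with a count in all 8 libraries of week 5 were ENSRNOG00000018414, ENSRNOG00000037563 and ENSRNOG00000001270, named because they are so few. ENSRNOG00000001270 had 15, 6 and 22 reads in 3w2 and 11, 12 and 11 reads in 3w100. At 5 weeks it had 14 and 13 reads in 5w2, 11 and 7 in 5w100, 4 and 11 in 3w2→2w100, and 17 and 12 in 3w100→2w2. Its mean of week 5, at 5.13% of the week-1 mean, was near that of week 3, at 5.77%, and groups overlapped throughout. For ENSRNOG00000037563 the fitted difference of week 5 from week 3 was 0.04 ± 0.534 (SE), the only positive one of the 33.

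ENSRNOG00000017672, singled out after its values were seen, was the only one of the 33 genes whose highest later library was in week 5. It had 37, 20 and 46 reads in 3w2 and 41, 37 and 41 reads in 3w100. At 5 weeks it had 9 and 1 reads in 5w2, 0 and 42 in 5w100, 1 and 0 in 3w2→2w100, and 4 and 37 in 3w100→2w2. The 2 high libraries were both replicate 2 and both began on the stiff surface, and the replicate 1 libraries of the same groups were at 0 and 4 reads. The 5 genes with the most reads in week 5, among them ENSRNOG00000017672, held 337 of the 528 reads that the 33 genes had there (63.8%). The others were ENSRNOG00000001270, ENSRNOG00000037563, ENSRNOG00000010319 and ENSRNOG00000024159.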

How the data were processed

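Bulk RNA-seq of 20 libraries in 8 groups was analysed, with groups and replicate numbers from the sample labels. The deposited table holds the authors' raw counts for each Ensembl gene, not normalized. The authors trimmed reads with TrimGalore!, checked them with FastQC, mapped them to mRatBN7.2 (rn7) with HISAT2 and counted them with FeatureCounts. For tool versions, strand setting and multi-mapped reads, the choice is not given in the sources used here. Counts are hence uncertain where genes overlap or have near-identical copies.

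The 33 genes were found by the rule on CPM from total counts. The members, the lists and the tests were chosen with earlier results of these data known. All genes were fitted with the quasi-likelihood test of edgeR 4.0.16 under R 4.3.3 (TMM factors of 0.927 to 1.12, filterByExpr with a minimum count of 10 and total of 15), and a call is an adjusted p (Benjamini-Hochberg) below 0.05. The fit of surface and time held 8 groups in 20 libraries (14034 genes), and that of the replicate number held the 6 libraries of week 1 with surface as a term (13207 genes). DESeq2 1.42.0 was an alternative. By the criterion that every correlation exceeds 0.1, numbers pair the libraries at 1 week. The pairing comes from the data, not from a stated design, so blocked values are given beside the results that they change.

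In a test on simulated data, where 200 genes had a log2 change of 2, the share recovered was 98.5% for surface (13729 genes), 100% for replicate number (13100 genes) and 100% for 5 against 3 weeks (13723 genes), with 16, 12 and 9 unchanged genes called. That change is larger than the members' median log2 difference between the surfaces in week 1, which was 0.26 in the fit of all 20 libraries. In 5w2 and 5w100, 11 members had no read at all. Simulated counts were drawn independently for each library, at the spread of the trend over all genes. No replicate effect was added beyond the change itself, and genes of low mean count were not changed. The members varied more than most genes in week 1 (median coefficient of variation 38.5%, against 10.1% for the 8882 genes). The recovered shares therefore do not show how often a change in the members, a smaller difference, or one at such low counts would be called. A listed 0 leaves room for a few counts by counting error alone, and 3 counts were taken as a floor here. Genes were named by highest mean, by largest called difference, by nearness to the limits and by largest and smallest coefficient of variation, with 2 identifiers in each direction. Others are said to be chosen after their values were seen or for the small number of their kind. The 24 lists of cell type markers and gene groups and the promoter motifs were not applied, since no identifier was paired with a symbol. Alternatives were another tool, RLE factors, no filter, the replicate block, fewer libraries, other limits and leaving out each library. A DESeq2 fit of week 1 with the block, and the block fit without each number, were added after the data were seen.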

Additional observations from a re-analysis of the deposited data

How the results depend on the processing

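The count of members called between the surfaces in week 1 was 0 in edgeR over all libraries, and stayed 0 with DESeq2, RLE factors, no filter, the replicate block in all 20 libraries, the 6 libraries of week 1 without a block, and without any 1 library of week 1. With the replicate block in the 6 libraries of week 1 it was 7 (39 genes in all), and with DESeq2 and the block 3 (27 genes). Without 1 replicate number in turn the blocked edgeR fit called 2 to 8 members and 5 to 153 genes (92 without replicate 2). The replicate number called 33 members in the 6 libraries and 31 with DESeq2 (3348 genes in all against 5613), but 0 in all 20 libraries (338 genes). Without 1 number in turn it called 20 to 32 members and 2035 to 4767 genes, the 20 without replicate 2. From week 3 to week 5, on values that the rule used, edgeR called 0 members (4 genes in all), DESeq2 21 (292 genes), no filter 1, ENSRNOG00000005825 (13 genes), and the replicate block 1, ENSRNOG00000008465 (11 genes). Without each library in turn it called 0 to 3 members and 0 to 163 genes. The 3 members were ENSRNOG00000005825, ENSRNOG00000063244 and ENSRNOG00000008465 without 3w2 replicate 2 (51 genes), and ENSRNOG00000005825, ENSRNOG00000004273 and ENSRNOG00000008465 without 5w100 replicate 2 (163 genes). A limit of 5 CPM gave 63 members and one of 20 CPM gave 16. A limit of 5% gave 25 and one of 20% gave 44, TMM-scaled CPM gave 30, and the median of week 1 gave 34. Leaving out a later library gave 33 or 34. Without replicate 1, 2 or 3 of week 1 the rule gave 29, 42 and 27 genes. Of these, 29, 33 and 25 were among the 33, so membership itself depended on the replicate numbers. The cause of these changes was not tested. A group left with 1 library took the spread of the rest. Depth limits the values of week 5, where most genes are at or below 3 counts.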
